A study of Mus musculus with 2 samples.

Results

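The integrated stress response (ISR) members described here are 10 genes, the transcription factors Atf3, Atf4, Atf5 and Ddit3 and the effectors Trib3, Ppp1r15a, Chac1, Ddit4, Sesn2 and Eif4ebp1. They were picked by symbol out of 27179 genes in the count tables, and all 10 were found in both tables. Their transcripts were counted in iBAT, the interscapular depot of brown fat that warms the body, taken from untreated C57BL/6N mice aged 20 days that the series describes as male. One group was wild-type (WT) and the other was a Ucp1 knockout (Ucp1-KO, Δ/Δ), which lacks the mitochondrial uncoupling protein that turns respiration into heat. Each genotype was 1 library from the pooled tissue of 3 animals, with 52950913 counts for WT and 53216727 for Ucp1-KO. With 1 library per genotype there is no p-value and no spread between animals, and every difference below is one between these libraries.

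The ISR is a shared answer of cells to amino acid shortage, unfolded protein in the endoplasmic reticulum, heme deficiency, double-stranded RNA and mitochondrial failure. These stresses are read by a set of sensor kinases, which phosphorylate the translation initiation factor eIF2. Most protein synthesis then slows, while messenger RNAs with short upstream reading frames in their leader, such as those of ATF4, ATF5, CHOP (the product of Ddit3) and GADD34 (the product of Ppp1r15a), are translated better. ATF4 switches on genes for amino acid synthesis and transport, for transfer RNA synthetases and for the feedback that ends the response. In brown fat, stress on mitochondria is known to engage this program together with the hormones FGF21 and GDF15.

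Several facts of the libraries precede the results. Ucp1 itself had 366473 counts in WT and 37853 in Ucp1-KO, 12.7% of the WT level. Mitochondrially encoded genes together took a larger share of the counts in Ucp1-KO than in WT. Y-linked transcripts (Ddx3y, Uty, Kdm5d, Eif2s3y) were listed at 0 in the WT library and had 491 to 3446 counts in Ucp1-KO, and Xist was abundant in both, which goes against a description of all animals as male. Each of 23 skeletal muscle markers was lower in Ucp1-KO by 2-fold or more, and their summed share of counts went from 0.706% to 0.0848%. The 12 endothelial markers summed to 0.289% and 0.146%, the 20 macrophage markers to 0.0190% and 0.0211%, and the 13 brown adipocyte markers, Ucp1 included, to 1.86% and 1.28%. Without Ucp1 the other 12 brown adipocyte markers summed to 1.16% of total counts in WT and 1.21% in Ucp1-KO. Under median-of-ratios scaling 9 of them were above 0 in log2 ratio (Ucp1-KO over WT), with a median of 0.53. Of all genes examined 49.9% were above 0. With scaling to total counts 7 of the 13 brown adipocyte markers, Ucp1 included, were above 0 and 6 below, with a median of 0.19. No muscle, endothelial, macrophage or brown adipocyte marker was at 0 in either library. The part of sex, muscle or other cell types in the results on the ISR members was not tested. With 1 library per genotype it cannot be told apart from genotype. In tissue RNA, fewer cells of a type and less RNA per cell cannot be told apart either.

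Abundance is given as counts and as normalized counts, which are counts divided by a size factor for the library. The difference between genotypes is the log2 ratio, log2((Ucp1-KO + 0.5)/(WT + 0.5)) on normalized counts. Gene positions are those of the GENCODE canonical transcript in GRCm39. The intervals in parentheses are 95% counting intervals computed on read pairs, and they cover counting error only. The size rule asked for a 2-fold difference, higher or lower. It was applied to the 15212 genes with a mean normalized count of at least 10, among which are all 10 members.

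Of the 10 members, 4 were at least 2-fold higher in Ucp1-KO, and 7.42% of all genes examined passed the same rule. These were Atf3, Chac1, Atf4 and Ppp1r15a. Only Ddit4 was at least 2-fold lower, against a background of 9.55% of genes. The interval lay wholly above 0 for 6 members, where 31.5% of all genes did so, and wholly below 0 for 2 members, where 30.5% did. For Atf5 and Trib3 the interval held 0. The median log2 ratio was 0.78 over the members and -0.0016 over all genes examined, and 7 members were above 0 against 49.9% of genes. The members were far apart from one another, from -1.05 for Ddit4 to 4.58 for Atf3. Among all genes past the size rule 43.7% were higher, or 24.0% with scaling to total counts, which moved the median of all genes by -0.31 and left 3 members at least 2-fold higher.

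**Figure D1:**
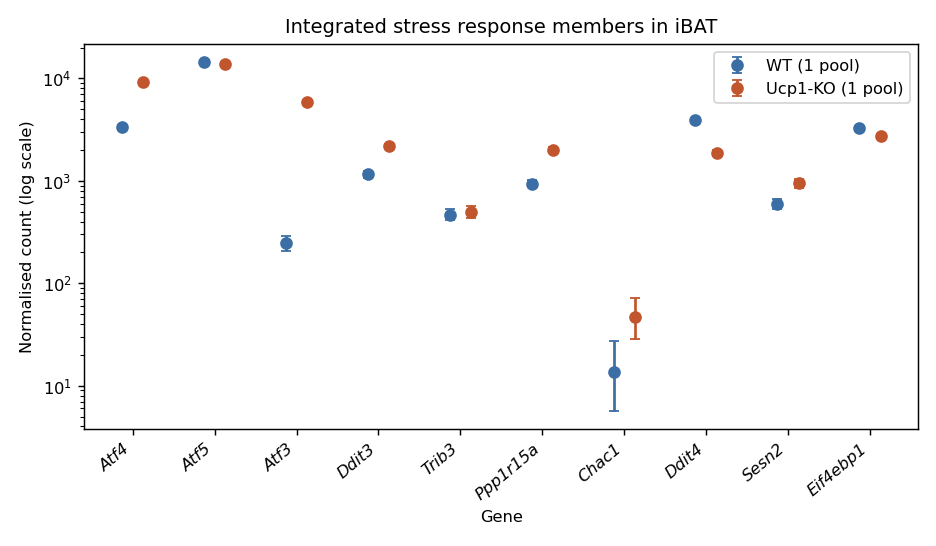
Normalized count (log axis) of each member in the WT library (blue) and the Ucp1-KO library (orange). Points are 1 library each and bars are 95% counting intervals. Atf3 shows the widest gap, from 247 to 5902, whereas the points of Atf5 and Trib3 lie almost level.

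The sequences before the start sites of the 5 members past the size rule are shown so that the regulatory letters near these genes can be read beside their abundance. They come from RefSeq promoter windows (250 bases before to 50 after the start, build GRCm38.p6), which held 10 windows for 9 of the 10 members, with 2 for Atf5 and none for Eif4ebp1. Each window matched GRCm39 exactly once, and the positions given are those of GRCm39. Bases from the start of the GENCODE transcript on were left off. Each is written 5′ to 3′ along the gene. Capitals mark a match on either strand to the C/EBP-ATF response element TGATGNAA, which ATF4 binds together with C/EBP proteins, or to the cyclic AMP response element TGACGTCA, which the ATF and CREB family binds.
Atf3 (GRCm39 chr1:190915538-190915780, minus strand): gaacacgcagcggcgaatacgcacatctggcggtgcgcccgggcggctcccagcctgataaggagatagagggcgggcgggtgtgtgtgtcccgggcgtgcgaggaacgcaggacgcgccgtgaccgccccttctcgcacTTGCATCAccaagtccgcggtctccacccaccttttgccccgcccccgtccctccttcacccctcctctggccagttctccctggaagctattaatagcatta
Chac1 (GRCm39 chr2:119181473-119181688, plus strand): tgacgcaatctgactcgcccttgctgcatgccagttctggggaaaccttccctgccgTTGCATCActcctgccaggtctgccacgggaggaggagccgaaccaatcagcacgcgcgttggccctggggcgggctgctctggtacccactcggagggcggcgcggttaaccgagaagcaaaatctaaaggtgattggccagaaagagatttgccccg
Atf4 (GRCm39 chr15:80139135-80139371, plus strand): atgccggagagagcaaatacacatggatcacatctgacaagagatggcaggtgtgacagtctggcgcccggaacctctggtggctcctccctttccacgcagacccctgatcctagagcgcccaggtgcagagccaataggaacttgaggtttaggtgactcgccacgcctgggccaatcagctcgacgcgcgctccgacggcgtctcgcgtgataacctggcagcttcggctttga
Ppp1r15a (GRCm39 chr7:45175693-45175942, minus strand): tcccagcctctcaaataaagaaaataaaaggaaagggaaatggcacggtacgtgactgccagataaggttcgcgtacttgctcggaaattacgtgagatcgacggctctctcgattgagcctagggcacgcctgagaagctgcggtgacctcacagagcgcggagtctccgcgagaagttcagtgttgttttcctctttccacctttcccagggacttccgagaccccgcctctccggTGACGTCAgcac
Ddit4 (GRCm39 chr10:59787663-59787842, minus strand): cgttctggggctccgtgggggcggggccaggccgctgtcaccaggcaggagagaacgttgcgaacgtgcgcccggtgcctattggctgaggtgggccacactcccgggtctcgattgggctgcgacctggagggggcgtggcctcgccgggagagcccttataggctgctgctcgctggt

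The windows of Atf3 and Chac1, the members with the highest log2 ratios, each held TTGCATCA, the reverse strand of the C/EBP-ATF element, 110 and 193 bases before the RefSeq start. Trib3 held a match 15 bases after its start. Thus 3 of 10 member windows had this element, which was present in 3.97% of all 32851 windows. This share is not independent of the choice of genes, since known targets of ATF4 are among the members. The element also did not follow the log2 ratio throughout. Trib3 was at 0.10, and the windows of Atf4 and Ppp1r15a, both at least 2-fold higher, held no match to it. Ppp1r15a had the cyclic AMP response element 12 bases before its start, a motif found in 1.79% of all windows. The AP-1 site TGANTCA, bound by FOS and JUN proteins, was found in the window of Ddit3 and in 7.81% of all. The short motif CCACG from the endoplasmic reticulum stress element was in 6 of the 10 member windows and in 32.8% of all. All motifs were searched on both strands and no match in a member window overlapped another. A match describes the letters in the window and not binding.

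Atf4 and Atf5 encode the transcription factors whose translation is favored when eIF2 is phosphorylated. Atf4 (Entrez 11911, chromosome 15, 80139372 to 80141745, plus strand) had 3721 counts in WT (3554 to 3894) and 8375 in Ucp1-KO (8123 to 8633). Its normalized count went from 3354 to 9292, a log2 ratio of 1.47 (1.39 to 1.55) or 2.77-fold. The counting intervals of the libraries were far apart, and 4.07% of the genes examined had a higher log2 ratio. Atf5 (Entrez 107503, chromosome 7, 44461680 to 44466082, minus strand), the most abundant member, had 15898 counts in WT and 12571 in Ucp1-KO. After normalization these were 14330 and 13947, a log2 ratio of -0.04 (-0.09 to 0.01), so that the interval held 0. Scaling to reference genes gave 0.05 and total counts gave -0.35, both outside that interval, and an interval on counts as deposited excluded 0. The direction of Atf5 thus depended on the scaling, whereas Atf4 stayed between 1.16 and 1.56. Annotated exons of Nup62 (1110 and 1145 counts) and Il4i1 (10 and 0 counts) overlap Atf5 on the opposite strand, and the strand setting of the counting is not given in the sources used here.

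Atf3 and Ddit3 are transcription factor genes that ATF4 and other stress signals switch on. Atf3 (Entrez 11910, chromosome 1, 190902493 to 190915537, minus strand) encodes a factor that also answers growth and inflammatory signals and often acts as a repressor. It had 274 counts in WT (230 to 324) and 5320 in Ucp1-KO (5120 to 5526). Normalized, these were 247 and 5902, which is 23.9-fold higher in Ucp1-KO (20.1 to 28.6). Its log2 ratio of 4.58 (4.33 to 4.84) was the 52nd highest of the 15212 genes examined. Ddit3 (Entrez 13198, chromosome 10, 127126560 to 127132163, plus strand) encodes CHOP, a factor linked to cell death in lasting stress. It had 1293 counts in WT (1195 to 1397) and 1958 in Ucp1-KO (1837 to 2085). The log2 ratio of 0.90 (0.75 to 1.04) lay just inside the size rule, and that of Ppp1r15a just beyond it. Exons of Mars1 (3004 and 2723 counts) overlap Ddit3 on the opposite strand.

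Trib3 and Ppp1r15a act as feedback. Trib3 encodes a pseudokinase that binds ATF4 and CHOP and restrains them. The gene (Entrez 228775, chromosome 2, 152179337 to 152186012, minus strand) had 519 counts in WT (458 to 586) and 451 in Ucp1-KO (394 to 514). Its normalized counts of 468 and 500 gave a log2 ratio of 0.10 (-0.17 to 0.36), and total counts turned this to -0.21. Trib3 is widely used as an ATF4 target, yet no difference between the libraries was beyond counting error. The interval reached up to 1.28-fold higher under this scaling, and it leaves out the choice of scaling and the spread between animals. Ppp1r15a (Entrez 17872, chromosome 7, 45172341 to 45175692, minus strand) encodes GADD34, the inducible subunit that leads a phosphatase to eIF2. It had 1044 counts in WT (956 to 1138) and 1808 in Ucp1-KO (1692 to 1930), which is 1.09 (0.93 to 1.25) as a log2 ratio and 0.78 with total counts. Its constitutive relative Ppp1r15b, named after its value was seen, had 11710 and 12886 counts and a log2 ratio of 0.44 (0.39 to 0.49). Exons of Tulp2 (12 and 8 counts) overlap Ppp1r15a on the opposite strand.

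Chac1 encodes an enzyme that degrades glutathione. The gene (Entrez 69065, chromosome 2, 119181689 to 119184866, plus strand) had 15 counts in WT (6.26 to 30.2) and 42 in Ucp1-KO (26.0 to 64.2). The intervals of these counts overlapped, and the interval of the log2 ratio of 1.75 ran from 0.53 to 3.21. As folds, the interval ran from 1.44 to 9.27, and depth sets this width. It covers counting error under this scaling only, and neither the choice of scaling nor the spread between animals. Its relative Chac2, named after its value was seen, had 595 and 600 counts and a log2 ratio of 0.31 (0.08 to 0.55).

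Ddit4, Sesn2 and Eif4ebp1 encode brakes on growth. Ddit4 encodes REDD1, which inhibits the kinase complex mTORC1 through the TSC complex and is also induced by glucocorticoids and low oxygen. The gene (Entrez 74747, chromosome 10, 59785491 to 59787662, minus strand) had 4332 counts in WT (4151 to 4518) and 1701 in Ucp1-KO (1589 to 1819). Its normalized count was 3905 in WT and 1887 in Ucp1-KO, 48.3% of the WT level, with a log2 ratio of -1.05 (-1.17 to -0.93). It was the only member past the size rule in this direction, and scaling to reference genes gave -0.96, short of 2-fold. Its relative Ddit4l, with 290 and 85 counts, had a log2 ratio of -1.47 with an upper bound of -0.97.

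Sesn2 encodes sestrin 2, a leucine sensor that restrains mTORC1 when amino acids are scarce. The gene (Entrez 230784, chromosome 4, 132219335 to 132237815, minus strand) had 665 counts in WT (595 to 740) and 854 in Ucp1-KO (775 to 939), a log2 ratio of 0.66 (0.45 to 0.87). Of the other sestrin genes, Sesn1 was at -0.73 (-0.94 to -0.52), and the interval of Sesn3 (0.54, 0.06 to 1.02) covered that of Sesn2. Eif4ebp1 encodes 4E-BP1, which holds the cap-binding factor eIF4E and lets it go when mTORC1 phosphorylates it. The gene (Entrez 13685, chromosome 8, 27750350 to 27766702, plus strand) had 3633 counts in WT (3468 to 3804) and 2463 in Ucp1-KO (2327 to 2605), a log2 ratio of -0.26 (-0.37 to -0.16). Its relatives, named after their values were seen, were at -0.21 (-0.34 to -0.08) for Eif4ebp2 and 0.23 (0.01 to 0.45) for Eif4ebp3. The 3 brakes on growth among the members did not share a direction.

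**Figure D2:**
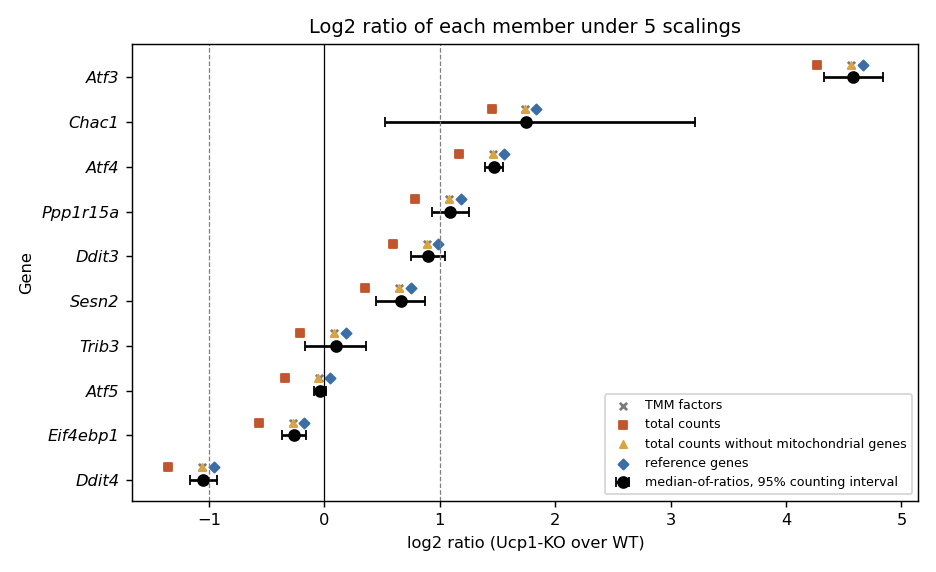
Log2 ratio of each member (Ucp1-KO over WT). Black points carry 95% counting intervals under median-of-ratios scaling, and colored marks give 4 other scalings. Dashed lines mark 2-fold. Total counts shift every member down by 0.31 or slightly less, and Atf3 stays at 4.27 or more under all of them.

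**Figure D3:**
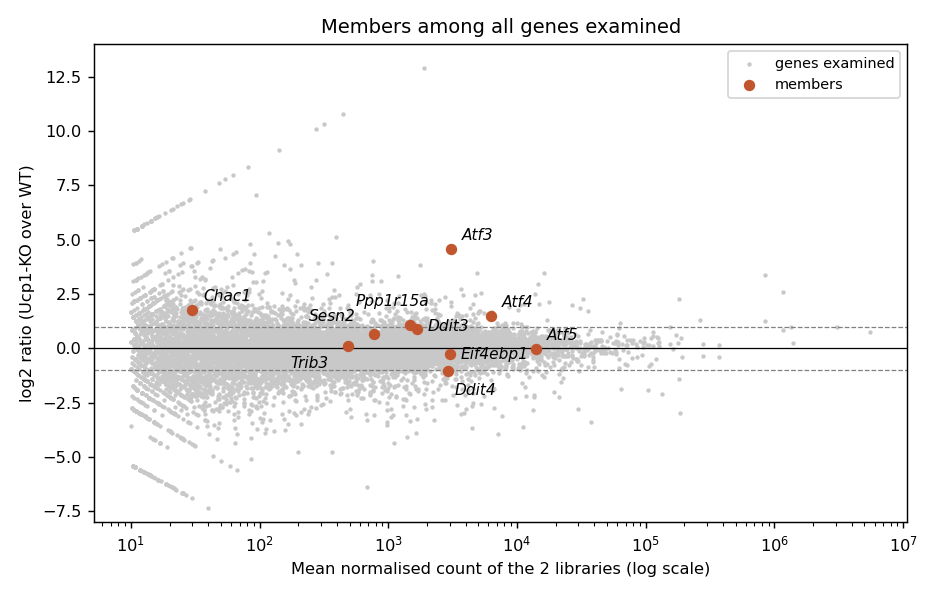
Log2 ratio against mean normalized count (log axis) for the 15212 genes examined (grey) and the 10 members (orange). Slanted rows of grey points at the edges are genes with few or 0 counts in 1 library. Atf3 lies above the cloud of genes of like abundance, Atf4 in its upper part, Atf5 and Trib3 in its middle and Ddit4 in its lower part.

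Compared per length (normalized count per kb of the GENCODE canonical transcript, 979 to 3486 bases), the members spanned a wide range in either library. In WT the order from high to low was Atf5, Ddit4, Atf4, Eif4ebp1, Ddit3, Ppp1r15a, Trib3, Sesn2, Atf3 and Chac1. Atf5 stood at 7891 and Chac1 at 8.14, and the counting intervals of neighbors in this order did not overlap. In Ucp1-KO the order was Atf5, Atf4, Atf3, Ddit3, Eif4ebp1, Ddit4, Ppp1r15a, Sesn2, Trib3 and Chac1, and only Sesn2 and Trib3 had overlapping intervals. Atf3 moved from place 9 to place 3, with 124 per kb in WT and 2975 in Ucp1-KO, while Ddit4 went from place 2 to place 6. Atf5 was 4.10 times as abundant per kb as Atf4 in WT and 1.44 times in Ucp1-KO. Per kb, Atf3 was at 0.0646 of the level of Atf4 in WT and at 0.557 in Ucp1-KO. Together the members held 0.0593% of all WT counts and 0.0668% of all Ucp1-KO counts, mitochondrial genes included. Their normalized counts summed to 28297 in WT and 39433 in Ucp1-KO. The places of Ddit3, Ppp1r15a, Ddit4 and Eif4ebp1 depend on the length used, since Ddit3 took place 6 in both libraries when the union of all annotated exons was used.

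**Figure D4:**
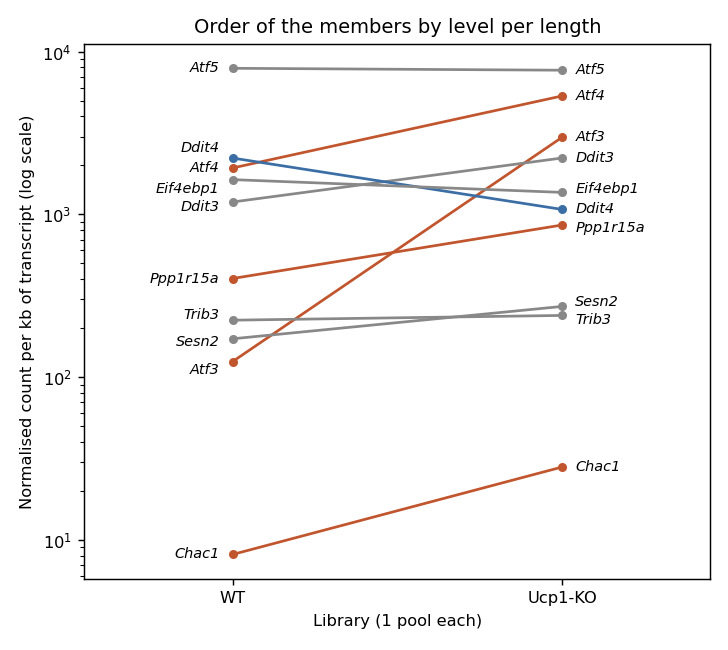
Normalized count per kb of transcript (log axis) of each member in the WT and the Ucp1-KO library, 1 pool each, joined by lines. Orange lines are members at least 2-fold higher in Ucp1-KO, blue is the member at least 2-fold lower and grey the rest. The line of Atf3 crosses those of Ddit4, Eif4ebp1, Ddit3, Ppp1r15a, Trib3 and Sesn2.

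The leader before the coding sequence was described as well. It is not independent of the choice of genes, since leaders with upstream reading frames are part of how Atf4, Atf5, Ddit3 and Ppp1r15a belong to the ISR. In the canonical transcripts the leader held 3 ATG triplets for Atf4 and for Ppp1r15a, 2 for Atf5 and for Ddit3 and 1 for Atf3 and for Sesn2. It held none for Ddit4, Trib3, Chac1 and Eif4ebp1. Of 21977 annotated coding transcripts, 58.8% had at least 1 and 37.9% at least 2, with a median leader of 201 bases. The leader of Atf4 was the longest among the members at 607 bases and that of Eif4ebp1 the shortest at 87. Of the 6 members with such triplets, 5 had intervals of the log2 ratio above 0 and 1 (Atf5) an interval that held 0. Of the 4 without, 1 (Chac1) had an interval above 0, 2 (Ddit4 and Eif4ebp1) had intervals below 0 and that of Trib3 held 0. Over all genes examined, 31.5% had intervals above 0 and 30.5% below 0. These shares were not split by leader, so the tally of 10 members has no background of its own. A link between leader and log2 ratio was not tested, and RNA abundance does not show translation.

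The machinery that starts the response was compared next. Of 16 genes for eIF2 kinases, eIF2, its exchange factor eIF2B and regulators, none was past 2-fold, and the median log2 ratio was 0.18, or -0.13 with total counts. Intervals lay above 0 for 8 genes and below 0 for 1, or for 3 and 7 genes with total counts. The largest differences were those of Eif2s2 (0.92, 0.84 to 1.01), the beta subunit of eIF2, Eif2b3 (0.83, 0.63 to 1.03) and Eif2b1 (0.44, 0.30 to 0.58), subunits of eIF2B. The sensor kinases themselves, named after their values were seen, had intervals that held 0 under median-of-ratios scaling. Eif2ak1, the heme sensor that also relays mitochondrial stress, was at -0.09 (-0.22 to 0.04), and Eif2ak2, the sensor of double-stranded RNA, at -0.08 (-0.25 to 0.09). Eif2ak3, the sensor in the endoplasmic reticulum, was at -0.14 (-0.30 to 0.02), and Eif2ak4, the amino acid sensor, at 0.14 (-0.07 to 0.34). Total counts shift these intervals by -0.31, which puts those of Eif2ak1, Eif2ak2 and Eif2ak3 wholly below 0. Kinase activity is set by phosphorylation and is not measured by transcript abundance.

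The other bZIP genes, which encode partners and relatives of the ATF members, were listed apart. Of 17 examined, 1 was at least 2-fold higher, and the median log2 ratio was -0.04, with 7 intervals above 0 and 6 below. With total counts the median was -0.35, 4 intervals lay above 0 and 11 below, and 1 gene was at least 2-fold lower. Batf reached 2.20 (0.41 to 4.76) from 6 and 24 counts, Atf2 was at 0.73 (0.65 to 0.81) and Cebpa, a factor of adipocyte differentiation, at -0.73 (-0.77 to -0.68). Among the 9 paralogs of the effectors none was 2-fold higher and Ddit4l was the only one 2-fold lower. Their median was -0.21, or -0.52 with total counts, which put 2 of them at least 2-fold lower.

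Targets of ATF4 in amino acid metabolism were compared as lists. Of 13 genes of amino acid and one-carbon synthesis, 4 were at least 2-fold higher and none lower, with a median log2 ratio of 0.54, or 0.24 with total counts. Aldh1l2, a mitochondrial folate enzyme, was at 1.91 (1.45 to 2.40), Mthfd2, another, at 1.58 (1.31 to 1.86) and Phgdh, the first enzyme of serine synthesis, at 1.46 (1.30 to 1.62). Of 10 amino acid transporters 3 were at least 2-fold higher, and the median was 0.84, or 0.54 with total counts. Slc7a5, a carrier of large neutral amino acids, was at 2.52 (1.75 to 3.42) from 32 and 151 counts, and its heavy chain partner Slc3a2 at 1.64 (1.55 to 1.74) from 2690 and 6833. Slc1a4 was at 1.78 (1.34 to 2.25). Slc1a5, named after its value was seen, was the only transporter below 0, at -0.79 (-0.83 to -0.75). All 12 cytosolic transfer RNA synthetase genes found had intervals above 0 and none was past 2-fold, with a median of 0.56. With total counts the median was 0.26, 9 of the 12 intervals lay above 0 and those of Mars1 and Wars1 lay below 0. Iars1 (0.92, 0.81 to 1.03), Nars1 (0.80, 0.74 to 0.87) and Cars1 (0.80, 0.67 to 0.93) had the highest values.

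Of 18 other ISR targets, 2 were at least 2-fold higher and 1 lower, with a median log2 ratio of 0.18, or -0.12 with total counts. Stc2, a secreted glycoprotein gene, was at -2.85 (-6.13 to -0.94) from 39 and 4 counts. Stbd1, a glycogen-binding protein gene, was at 1.86 (1.65 to 2.08) and Rnf122 at 1.11 (0.49 to 1.77). The hormone genes Fgf21 and Gdf15 were listed at 0 in WT and had 98 and 44 counts in Ucp1-KO. Set against 3 read pairs (6 counts) in the WT library, which a count of 0 allows, this was at least 20.1-fold and 9.03-fold higher with the Ucp1-KO counts taken as they are. With counting error in both libraries, as for the other genes, the lower bounds were 15.7-fold and 6.74-fold.

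Genes of the unfolded protein response in the endoplasmic reticulum and in mitochondria formed separate lists. None of 19 endoplasmic reticulum chaperone and stress genes was past 2-fold, with 7 intervals above 0 and 8 below and a median log2 ratio of -0.01. With total counts 3 intervals lay above 0 and 14 below, and the median was -0.32. Dnajb9 was at 0.72 (0.63 to 0.81), Hspa5, the chaperone BiP, at 0.64 (0.61 to 0.67) and Ern1, the sensor IRE1, at 0.45 (0.18 to 0.73). None of 10 mitochondrial chaperone and protease genes was past 2-fold, and their median was 0.17, or -0.14 with total counts. Lonp1 (0.36, 0.30 to 0.43), Clpx (0.29, 0.24 to 0.35) and Hspe1 (-0.27, -0.33 to -0.21) were furthest from 0.

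**Figure D5:**
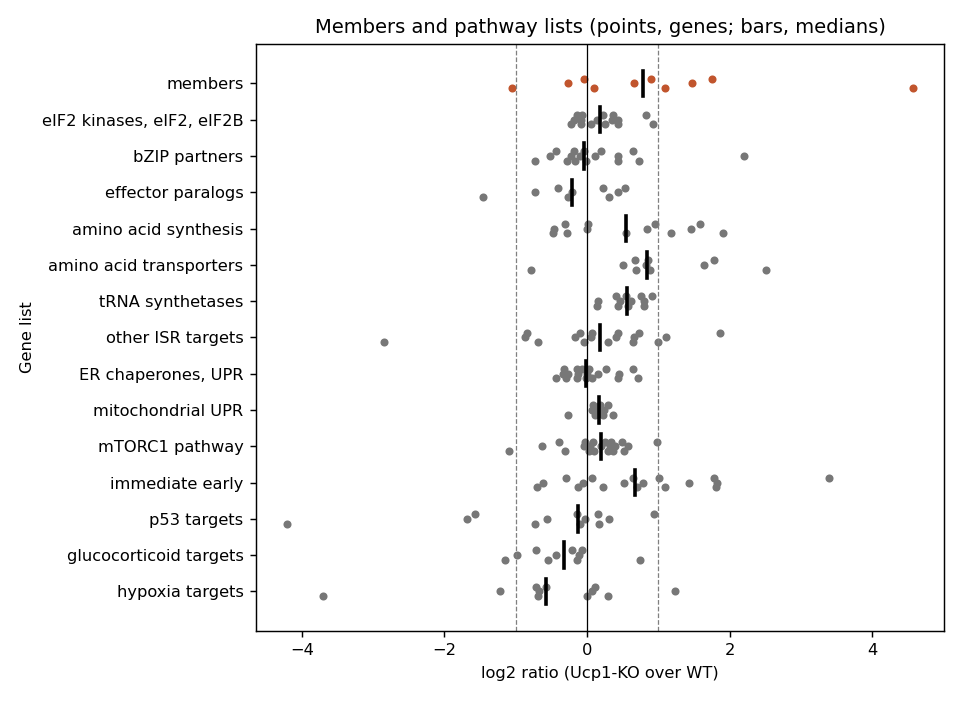
Log2 ratio (Ucp1-KO over WT) of the genes examined in the member list (orange) and in 14 other lists (grey). Each point is 1 gene, black bars are medians and dashed lines mark 2-fold. With this median-of-ratios scaling the transfer RNA synthetases lie above 0 in a narrow band (Mars1 and Wars1 fall below 0 with total counts), while the members spread from -1.05 to 4.58.

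Several members answer other signals as well, and the lists for these signals are given beside them. Of 18 immediate early genes examined, which Atf3 resembles in its fast induction, 7 were at least 2-fold higher and none lower, with a median log2 ratio of 0.68. With total counts 19 passed the minimum mean, 5 were at least 2-fold higher and 1 lower, and the median was 0.34. Nr4a3 was at 3.40 (2.88 to 3.98), Myc at 1.82 (1.53 to 2.14) and Egr1 at 1.80 (1.62 to 1.99). Of 10 glucocorticoid targets 9 were below 0 and 1 was at least 2-fold lower, with a median of -0.33. Over all genes examined 49.9% were above 0. Tsc22d3 was at -1.15 (-1.22 to -1.07), Klf9 at -0.99 (-1.07 to -0.90) and Pdk4 at 0.75 (0.73 to 0.77). The 11 hypoxia targets had a median of -0.58, with 1 at least 2-fold higher and 2 lower. Ankrd37 was at -3.70 (-5.23 to -2.58) from 199 and 12 counts, Adm was at 1.23 (0.82 to 1.65) and P4ha1 at -1.22 (-1.32 to -1.13).

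The 12 targets of p53, a factor that also induces Sesn2 and Ddit4, had a median log2 ratio of -0.12. Of these, 8 were below 0, none was at least 2-fold higher and 3 were at least 2-fold lower. Perp was at -4.20 (-9.84 to -1.88) from 55 and 2 counts, Trp53inp1 was at -1.69 (-1.79 to -1.58) and Eda2r at -1.58 (-2.11 to -1.08). Of 21 genes of the mTORC1 pathway, on which the brakes among the members act, only Castor1 was past 2-fold, and the median was 0.20, or -0.11 with total counts. Castor1, an arginine sensor, was at -1.09 (-1.44 to -0.75), Flcn at 0.99 (0.93 to 1.04) and Castor2 at -0.64 (-0.95 to -0.33). The part of these signals in the values of the members was not tested.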

How the data were processed

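RNA from iBAT of 1 WT and 1 Ucp1-KO pool (3 animals each) was sequenced from directional, poly-A enriched libraries. The deposited values are raw read counts per Entrez gene, in files that the authors named for the tool featureCounts. The submitters' processing notes name Trim Galore, HISAT2 and mm39. The annotation, versions and settings for strand and multiply mapped reads are not given in the sources used here. Rows without a symbol (1319 genes, 0.156% and 0.121% of counts) were kept.

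Low counts were more often even (70.7% and 73.4% at 1 to 10 counts, against 49.9% and 50.2% at 100 to 1000), so intervals were computed on read pairs, counts divided by 2. Size factors were median-of-ratios (DESeq2 1.42.0 in R 4.3.3), 1.11 for WT and 0.901 for Ucp1-KO. Count intervals are exact Poisson and ratio intervals exact conditional binomial (Clopper-Pearson, scipy 1.17.1). Scripts were tested on simulated data. Gene lengths, transcript positions and leaders are those of GENCODE mouse release 39 (GRCm39), joined by symbol. Alternatives were TMM factors (edgeR 4.0.16), total counts with and without mitochondrial genes, reference genes (Tbp -0.38, Gtf2b 0.21 and Hsp90ab1 -0.10), a pseudocount of 5, other minimum means and other fold rules.

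The members and the 22 other lists were chosen with earlier results of these data known. Named genes are the members, Ucp1, all genes of lists of up to 4, all 5 sex-linked genes and, from each other list, the 3 furthest from 0 in log2 ratio. Genes outside this rule (Ppp1r15b, Chac2, Eif4ebp2, Eif4ebp3, Eif2ak1 to Eif2ak4, Slc1a5, Mars1, Wars1 and genes overlapping members) were chosen after their values were seen, as were the counts with total-count scaling and the brown adipocyte markers without Ucp1. Those of the marker lists stand among the closing observations.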

Additional observations from a re-analysis of the deposited data

How the results depend on the processing

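No paired analysis was possible because WT and Ucp1-KO were 1 pooled library each, which also means that none could be left out in turn. Of 50 values for single members under other scalings or pseudocounts, 39 stayed within their counting intervals and none that lay beyond counting error changed sign. The 11 others were all but 1 of the members with total counts, and Atf4 (1.56) and Atf5 (0.05) with reference genes. Over these settings Atf3 ranged from 4.27 to 4.66, Atf4 from 1.16 to 1.56 and Ddit4 from -1.36 to -0.96. On counts as deposited in place of read pairs, the interval of Atf5 excluded 0.

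Total counts moved the median of the members to 0.47 and gave 732 genes at least 2-fold higher and 2320 lower. The list medians that changed sign under it were those of eIF2 kinases, eIF2 and eIF2B (-0.13), the other ISR targets (-0.12), the mitochondrial chaperones and proteases (-0.14), the mTORC1 pathway (-0.11) and the macrophage markers (-0.12). Without mitochondrial genes in the total, all 10 members stayed within their intervals. Factors from total counts were 0.997 for WT and 1.00 for Ucp1-KO with these genes, and 1.10 and 0.905 without them.

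Minimum means of 50 and of 100 left out Chac1 and moved the median of the members to 0.66. They gave 617 and 455 genes higher and 811 and 612 lower, against 1128 and 1453, and no filter gave 2187 and 2844. With a 3-fold rule 2 members (Atf3 and Chac1), 534 genes higher and 729 lower passed. An interval wholly beyond 2-fold left 2 members (Atf3 and Atf4), 414 genes higher and 566 lower. A 1.5-fold rule gave 2348 and 2728 genes. Depth limits Chac1, Batf, Stc2 and Perp, whose intervals are wide.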

Other observations

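All 23 muscle markers and 11 of 12 endothelial markers were below 0 in log2 ratio (Ucp1-KO over WT), while the other marker lists held genes on either side. In log2 ratio, the muscle genes furthest from 0 were Pvalb (-3.92), Casq1 (-3.65) and Mylpf (-3.63), and those of endothelium were Emcn (-1.39), Vwf (-1.05) and Egfl7 (-0.92). Among brown adipocyte genes these were Ucp1 (-2.98), Elovl3 (2.52) and Dio2 (2.28), and among macrophage genes Lgals3 (2.23), Itgam (2.04) and Trem2 (1.92). Of 10 neutrophil and monocyte genes 7 could be examined, with Mmp8 at 2.21, Mmp9 at -2.08, Ly6c2 at -2.01 and a median of 0.94, and their summed share of counts was 0.000808% in WT and 0.0010% in Ucp1-KO.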
